A study of Mus musculus with 8 samples.

Results

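Expression of 8 genes for enzymes and a transporter of the epidermal lipid barrier (Abca12, Alox12b, Aloxe3, Elovl4, Cers3, Ugcg, Sptlc1 and Sptlc2) was examined in belly skin of hurpin-transgenic mice and wildtype mice. The members were all probe sets annotated to exactly 1 of the 8 symbols, which gave 17 of the 45037 probe sets that were not array controls. The transgenic group held 4 animals aged 8 months (females 7 and 84, males 11 and 17) that carried a transgene for human hurpin, an inhibitor of the cysteine protease cathepsin L. The wildtype group held 3 animals of the same age (males 26 and 28, female 29), and wildtype 29 was measured on 2 arrays, so that 8 arrays represented 7 animals. The promoter that drives the transgene, the strain and the batches of labelling or scanning are not given in the sources used here. Each animal was treated as a replicate, and its small number limits the precision of every comparison.

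The outermost layers of the epidermis hold back water with stacked sheets of ceramides, cholesterol and free fatty acids. Serine palmitoyltransferase, a complex built on SPTLC1 and SPTLC2, makes the first intermediate of ceramides, ELOVL4 lengthens the fatty acids to the very long chains used in skin, and CERS3 joins them to the sphingoid base. UGCG adds glucose to ceramide, ABCA12 moves glucosylceramides into the lamellar granules that keratinocytes secrete, and the lipoxygenases ALOX12B and ALOXE3 oxidise the linoleate of acylceramides as a step in binding them to the cornified envelope. Loss of ABCA12, ALOX12B, ALOXE3 or CERS3 causes congenital ichthyosis in humans.

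Levels are given per animal as log2 of the authors' signal intensity plus 21.8, a pseudocount that puts the floor of the scale at 4.45, and differences are transgenic minus wildtype on that scale, where 1 unit would be a doubling of intensity plus the pseudocount. Signals of different probe sets are not comparable as levels, since each set of probes has its own affinity. In bulk skin, fewer cells of a type and less RNA per cell cannot be told apart. All 15 measured markers of differentiating keratinocytes passed the level filter of 6.45 on their mean over animals, as did 27022 of the 45037 probe sets. The markers of every other listed cell type passed too, so passing alone does not show that the tissue matches its label. Krt2 passed, at 6.46, only through transgenic 17 at 8.87, with the other animals between 5.84 and 6.22. The mean over the 15 markers lay between 12.60 and 13.13 in transgenic and between 12.68 and 12.93 in wildtype animals. Hair shaft keratins varied far more, with a mean of 12.74, 11.84, 9.34 and 12.67 in transgenic 7, 11, 17 and 84, against 6.81, 13.30 and 13.42 in wildtype 26, 28 and 29. Control transcripts differed in how far signal reached towards their 5' ends. For the Gapdh control, signal at the 3' end divided by that at the 5' end was 13.8, 1.45, 4.68 and 17.2 in transgenic 7, 11, 17 and 84, against 1.14, 1.03 and 1.14 in wildtype 26, 28 and 29 (2-sided exact permutation p = 0.0571, the smallest that doubling the smaller tail allows with 4 and 3 animals). Over single wildtype arrays, before those of wildtype 29 were averaged, the Gapdh ratio ran from 0.927 to 1.41, close to the 1.45 of transgenic 11. For Actb the ratio was 4.33, 2.40, 3.33 and 5.87 in transgenic 7, 11, 17 and 84, against 2.21, 2.24 and 2.42 in wildtype 26, 28 and 29, so that transgenic 11 lay within the wildtype range.

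Promoter sequences are shown for Ugcg and Sptlc1, the genes with the most negative differences, and for Abca12 as a gene of the differentiating epidermis. They are RefSeq sequences of build GRCm38.p6, 300 bases around the annotated start, written 5' to 3' on the gene's strand, with the GC box GGGCGG or its reverse complement in capitals. The Ugcg window is chr4:59189300-59189599 on the plus strand, that of Sptlc1 is chr13:53377312-53377611 on the minus strand and that of Abca12 is chr1:71414861-71415160 on the minus strand.
Ugcg: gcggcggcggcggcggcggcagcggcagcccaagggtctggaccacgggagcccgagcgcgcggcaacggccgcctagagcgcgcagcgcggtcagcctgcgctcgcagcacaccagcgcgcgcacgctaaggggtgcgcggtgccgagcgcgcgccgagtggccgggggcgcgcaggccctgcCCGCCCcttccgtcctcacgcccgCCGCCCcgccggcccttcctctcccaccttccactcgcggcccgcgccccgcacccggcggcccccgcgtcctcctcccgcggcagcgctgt
Sptlc1: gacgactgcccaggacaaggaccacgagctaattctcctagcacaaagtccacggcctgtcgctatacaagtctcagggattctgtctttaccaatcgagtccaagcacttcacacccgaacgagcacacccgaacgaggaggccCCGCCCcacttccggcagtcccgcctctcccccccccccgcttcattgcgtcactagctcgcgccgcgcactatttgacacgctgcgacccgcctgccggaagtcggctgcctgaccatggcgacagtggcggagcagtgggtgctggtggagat
Abca12: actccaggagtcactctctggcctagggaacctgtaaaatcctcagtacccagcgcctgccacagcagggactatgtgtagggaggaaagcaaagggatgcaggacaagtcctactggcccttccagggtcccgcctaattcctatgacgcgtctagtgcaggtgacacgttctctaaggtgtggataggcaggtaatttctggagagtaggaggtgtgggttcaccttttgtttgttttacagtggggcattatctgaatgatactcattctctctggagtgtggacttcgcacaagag
Sequences were found for 7 of the 8 members. The Ugcg window held 53 CpG dinucleotides, that of Sptlc1 25 and that of Abca12 6, against a median of 7 over 32841 promoters. GC boxes, searched on both strands and counted with overlaps, were present in Ugcg (2), Sptlc1 (1), Sptlc2 (3), Elovl4 (2) and Alox12b (3), and the letters were not in the windows of Abca12 and Cers3. Of all promoters, 35.7% held a GC box. The AP-1 motif TGANTCA, held by 7.81% of all promoters, was in none of the 7 windows. The E-box CACGTG, held by 7.15%, was in that of Elovl4. These matches describe letters and say nothing of whether a factor binds.

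Transgenic skin was set against wildtype skin to ask whether transcripts of the lipid barrier differ in mice that carry the cathepsin L inhibitor. No member passed the test. Of the 17 member probe sets, 15 from all 8 genes lay above the level filter and were tested, and limma called 0 of them at an adjusted p under 0.05 over 27022 probe sets, where the share called over the whole table was 0.0148%. At an unadjusted p under 0.05 limma gave 2 of the 15, 1 for Ugcg and 1 for Sptlc1, both lower in transgenic skin, where 11.7% of all tested probe sets passed that limit. Groups did not overlap in 2 of the 15, against 11.3% of all tested probe sets. The median difference was -0.07 over the 15, with 10 below 0, and 0.0012 over all 27022.

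The intervals, which are not adjusted for the number of probe sets, show the range of differences compatible with the values. They do not show what size of change the adjusted test would call. The 95% interval of the difference lay within a 2-fold change of intensity plus the pseudocount, in either direction, for 9 of the 15 probe sets. Among them were those of Abca12, Aloxe3, Cers3, both of Elovl4 and both tested ones of Sptlc2. The other 6 belonged to Alox12b, Ugcg (2) and Sptlc1 (3). At low signal, as for Abca12, the same interval allows a larger change of the intensity itself. The half-width of the interval ran from 0.33 for a probe set of Sptlc2 to 1.36 for a probe set of Sptlc1. Between the 2 arrays of wildtype 29, the same animal, member probe sets differed by a median of 0.13 and by at most 0.89.

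**Figure D1:**
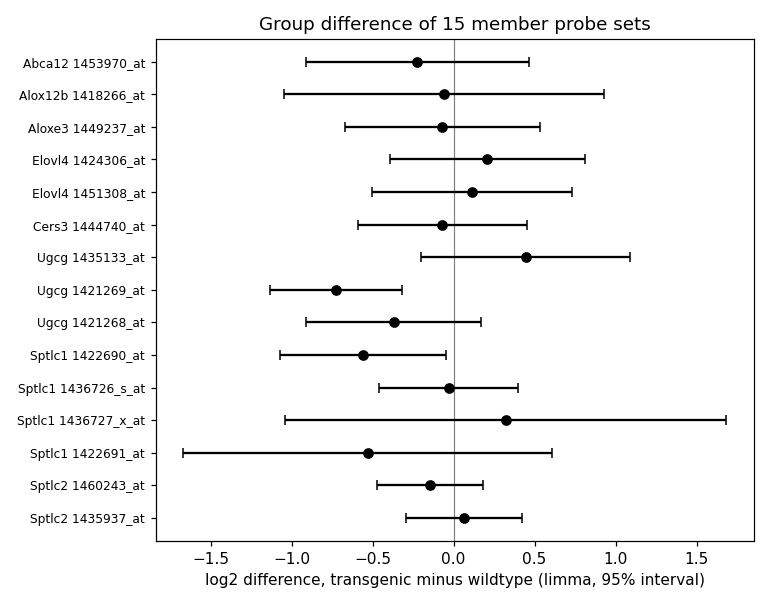
Log2 difference, transgenic minus wildtype, of the 15 tested member probe sets with its 95% interval from limma, 1 row per probe set and the line at 0 marking no difference. The point for Ugcg 1421269_at lies at -0.73 and that for Ugcg 1435133_at at 0.44, and 13 of the 15 intervals cross 0.

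The probe sets of Ugcg, the glucosylceramide synthase, were unlike in the direction of their group difference, and none passed the test. Probe set 1421269_at measured 8.63, 8.30, 8.52 and 8.14 in transgenic 7, 11, 17 and 84, against 9.22, 8.98 and 9.17 in wildtype 26, 28 and 29. All 4 transgenic animals lay below all 3 wildtype animals, with means of 8.40 ± 0.22 (SD, n = 4) and 9.12 ± 0.12 (SD, n = 3). The difference was -0.73 (SE 0.18, 95% interval -1.13 to -0.32, limma adjusted p = 0.301), a fold of 0.604 in intensity plus the pseudocount, and it missed the threshold. It was -0.79 within females and -0.69 within males. Without transgenic 7 and 84, the animals with the highest Gapdh ratio and the only transgenic females, it was -0.71. With that ratio as a covariate it was -0.74, in a model where ratio and group cannot be fully told apart.

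Probe set 1435133_at, the one of Ugcg with the highest signal, measured 10.11, 8.93, 9.77 and 10.03 in transgenic 7, 11, 17 and 84, against 9.42, 9.03 and 9.35 in wildtype 26, 28 and 29. Transgenic 11 lay below every wildtype animal and the other transgenic animals lay above them. The difference was 0.44 (SE 0.28, limma adjusted p = 0.562). Among transgenic animals the level was lowest in transgenic 11, which had the lowest Gapdh ratio of them. It was highest in transgenic 7 and not in transgenic 84, which had the highest ratio. The difference was -0.36 with the ratio as a covariate and 0.09 without transgenic 7 and 84. The part of the ratio in this difference was not tested. Probe set 1421268_at, which the annotation ties to the same GenBank entry as 1421269_at, measured 8.02, 8.26, 8.11 and 7.44 in transgenic 7, 11, 17 and 84, against 8.55, 8.10 and 8.34 in wildtype 26, 28 and 29, and the groups overlapped. Its difference was -0.37 (SE 0.24, limma adjusted p = 0.564), and 0.05 with the ratio as a covariate. Probe set 1439863_at lay below the level filter and was not tested, with levels between 4.94 and 6.52 in transgenic and between 5.59 and 6.62 in wildtype animals.

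The unequal shift within Ugcg was read as a contrast in each animal, the log2 level of 1435133_at minus that of 1421269_at. It was 1.48, 0.63, 1.25 and 1.88 in transgenic 7, 11, 17 and 84, against 0.20, 0.05 and 0.18 in wildtype 26, 28 and 29. The groups did not overlap, and the means were 1.31 ± 0.53 (SD, n = 4) and 0.14 ± 0.08 (SD, n = 3), a difference of 1.17 (2-sided exact permutation p = 0.0571, the smallest possible). Such contrasts set the probe set of a gene with the highest signal against each of its others. Groups did not overlap in 2 of the 7 member contrasts between tested probe sets, against 19.7% of the 9714 such contrasts over all genes, and they overlapped in the 2 that used a probe set below the level filter. In transgenic animals the contrast ran in the order of the Gapdh ratio, lowest in transgenic 11 at a ratio of 1.45 and highest in transgenic 84 at 17.2.

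**Figure D2:**
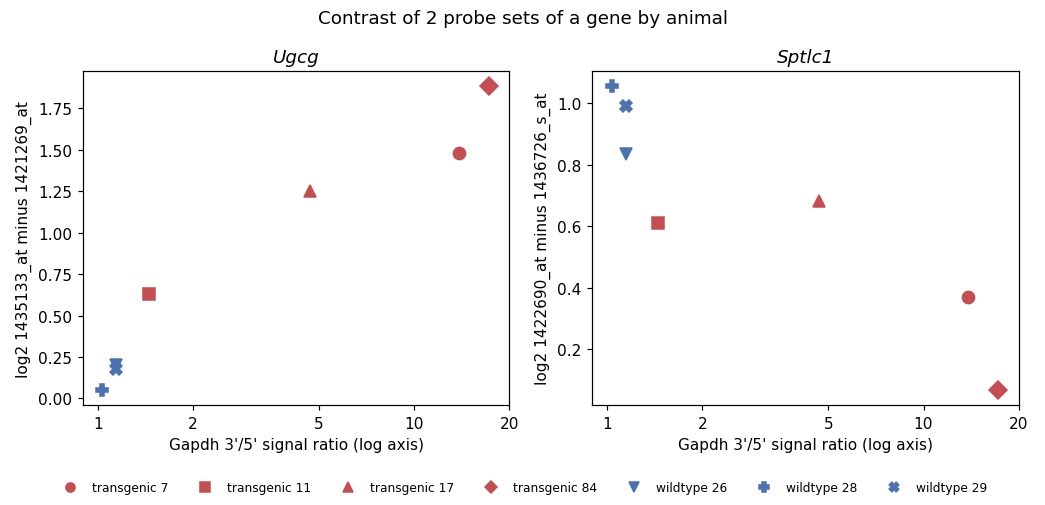
Contrast between 2 probe sets of Ugcg (left) and of Sptlc1 (right) on the log2 scale for each of the 7 animals, chosen after the values were seen, against the Gapdh 3' to 5' signal ratio on a log axis. Transgenic animals (red) run from 0.63 to 1.88 for Ugcg and from 0.07 to 0.68 for Sptlc1, while wildtype animals (blue) sit at a ratio near 1 with 0.05 to 0.20 and 0.83 to 1.05.

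Sptlc1, the shared subunit of serine palmitoyltransferase, had no probe set that passed the test. Probe set 1422690_at measured 10.63, 11.16, 11.26 and 10.48 in transgenic 7, 11, 17 and 84, against 11.71, 11.26 and 11.36 in wildtype 26, 28 and 29. Transgenic 17 came within the wildtype values, so that the groups overlapped. The means were 10.88 ± 0.38 (SD, n = 4) and 11.44 ± 0.24 (SD, n = 3), a difference of -0.56 (SE 0.22, 95% interval -1.07 to -0.05, limma adjusted p = 0.40). The lowest values were in transgenic 7 and 84, which had the highest Gapdh ratios and were the only transgenic females. The difference was -0.23 without these animals and -0.07 with the ratio as a covariate.

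Values differed between the probe sets of Sptlc1. Probe set 1436726_s_at, of a class whose probes can match several transcripts, measured 10.26, 10.55, 10.58 and 10.42 in transgenic 7, 11, 17 and 84, against 10.88, 10.20 and 10.36 in wildtype 26, 28 and 29. Its difference was -0.03 (SE 0.19, limma adjusted p = 0.964). The contrast of 1422690_at minus 1436726_s_at was 0.37, 0.61, 0.68 and 0.07 in transgenic 7, 11, 17 and 84, against 0.83, 1.05 and 0.99 in wildtype 26, 28 and 29, a difference of -0.53 with no overlap (2-sided exact permutation p = 0.0571, the smallest possible). Unlike the Ugcg contrast, it did not fully follow the order of the Gapdh ratio in transgenic animals. Transgenic 84 was nearest to 0, but transgenic 17 and not transgenic 11 was nearest to the wildtype animals. Probe sets 1436727_x_at and 1422691_at gave differences of 0.32 (SE 0.60) and -0.53 (SE 0.50), with adjusted p of 0.860 and 0.701 from limma. The arrays of wildtype 29 differed by 0.89 in 1436727_x_at, whose class can also bind related sequences, and wildtype 28 stood at 6.26 there, against 8.62 and 8.37 in wildtype 26 and 29. In 1422691_at transgenic 84 stood at 5.0, near the floor, and the difference without transgenic 7 and 84 was 0.17.

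Sptlc2, the catalytic partner of Sptlc1, varied little in its 2 tested probe sets. Probe set 1460243_at measured 9.83, 9.87, 9.88 and 9.56 in transgenic 7, 11, 17 and 84, against 9.94, 9.93 and 9.93 in wildtype 26, 28 and 29. Transgenic animals lay below wildtype animals without overlap and 3 of the 4 lay close below them. The difference was -0.15 (SE 0.14, limma adjusted p = 0.711), and it was -0.07 without transgenic 84. Probe set 1435937_at measured 8.91, 9.03, 8.91 and 9.10 in transgenic 7, 11, 17 and 84, against 9.04, 8.73 and 9.00 in wildtype 26, 28 and 29. These groups overlapped, with a difference of 0.06 (95% interval -0.30 to 0.42, limma adjusted p = 0.905). The untested probe set 1454257_at lay between 5.35 and 6.64 in transgenic and between 5.23 and 7.14 in wildtype animals.

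**Figure D3:**
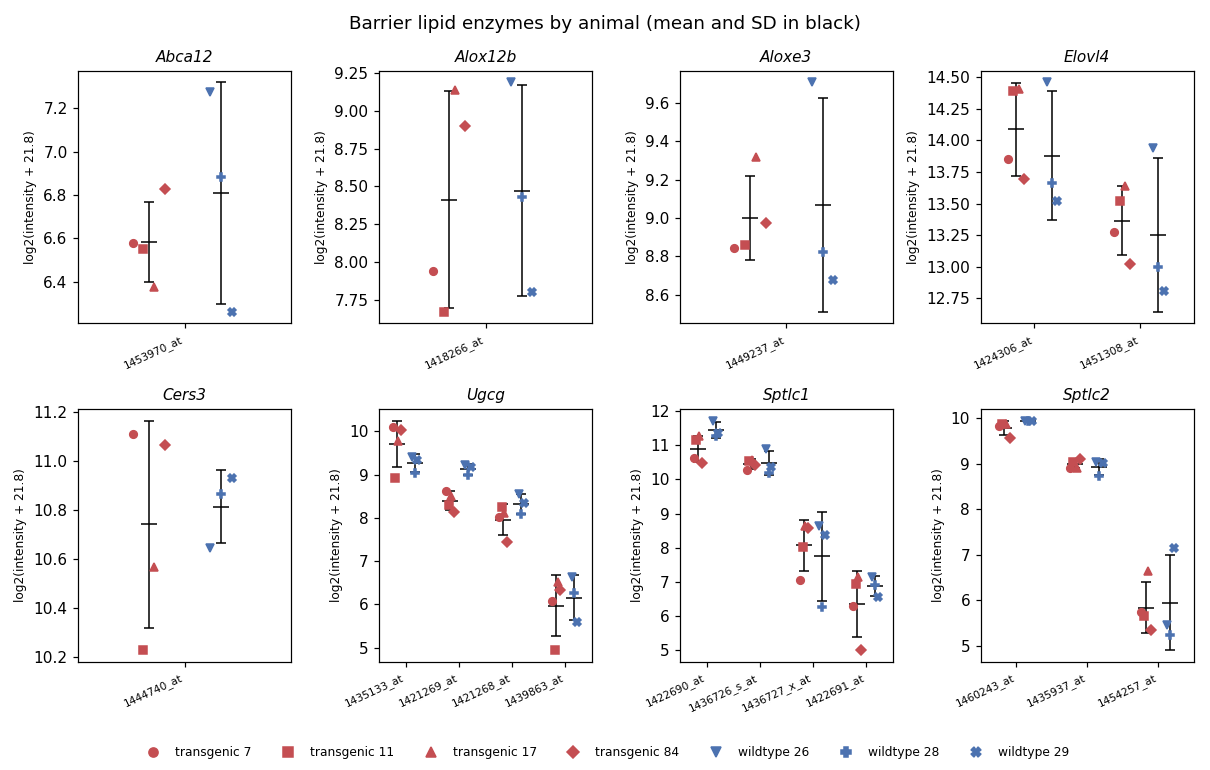
Log2 of intensity plus 21.8 for the 17 member probe sets, 1 panel per gene with its own axis, transgenic animals in red at the left and wildtype animals in blue at the right of each probe set, and mean and SD in black. Groups are apart in Ugcg 1421269_at and, by a small margin, in Sptlc2 1460243_at.

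Elovl4, the elongase of very long chain fatty acids, was spread by animal and not by group. Probe set 1424306_at measured 13.85, 14.39, 14.41 and 13.69 in transgenic 7, 11, 17 and 84, against 14.46, 13.66 and 13.52 in wildtype 26, 28 and 29. Probe set 1451308_at measured 13.28, 13.52, 13.64 and 13.03 in transgenic 7, 11, 17 and 84, against 13.94, 13.00 and 12.81 in wildtype 26, 28 and 29. Both probe sets put the males transgenic 11, transgenic 17 and wildtype 26 above the other 4 animals, and the fourth male, wildtype 28, with the females. The differences were 0.21 (95% interval -0.40 to 0.81, limma adjusted p = 0.786) and 0.11 (95% interval -0.50 to 0.73, limma adjusted p = 0.897). Without wildtype 26 they were 0.50 and 0.46, and without wildtype 29 they were 0.025 and -0.11.

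The same 3 animals had the highest mean over the markers of the sebaceous gland, a list of lipid-producing gland genes that does not hold Elovl4. The mean of the 8 measured markers was 10.74, 11.36, 11.57 and 10.92 in transgenic 7, 11, 17 and 84, against 11.61, 10.96 and 10.72 in wildtype 26, 28 and 29. These 3 animals were highest in 4 of the 8 markers, Cidea, Elovl3, Far2 and Scd3, and not in Mc5r, Mogat2, Prdm1 and Scd1. Far2, a fatty acyl reductase, measured 12.57, 13.12, 14.08 and 12.56 in transgenic 7, 11, 17 and 84, against 13.59, 12.32 and 12.06 in wildtype 26, 28 and 29. Prdm1, a transcription factor, measured 10.58, 10.05, 10.13 and 10.43 in transgenic animals, against 10.46, 10.91 and 11.05 in wildtype animals in the same orders. Fibroblast markers were also highest in the 3 animals highest for Elovl4, at 14.34, 14.39 and 14.47 in transgenic 11, transgenic 17 and wildtype 26. Markers of macrophages and Langerhans cells were too, at 11.45, 11.65 and 12.11 in the same order. Hair shaft keratins were lowest in them, at 11.84, 9.34 and 6.81. The other marker lists did not put these animals highest. The resemblance was thus not particular to the gland list. It was noticed after the values were seen, and the part of gland content in the Elovl4 level was not tested.

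**Figure D4:**
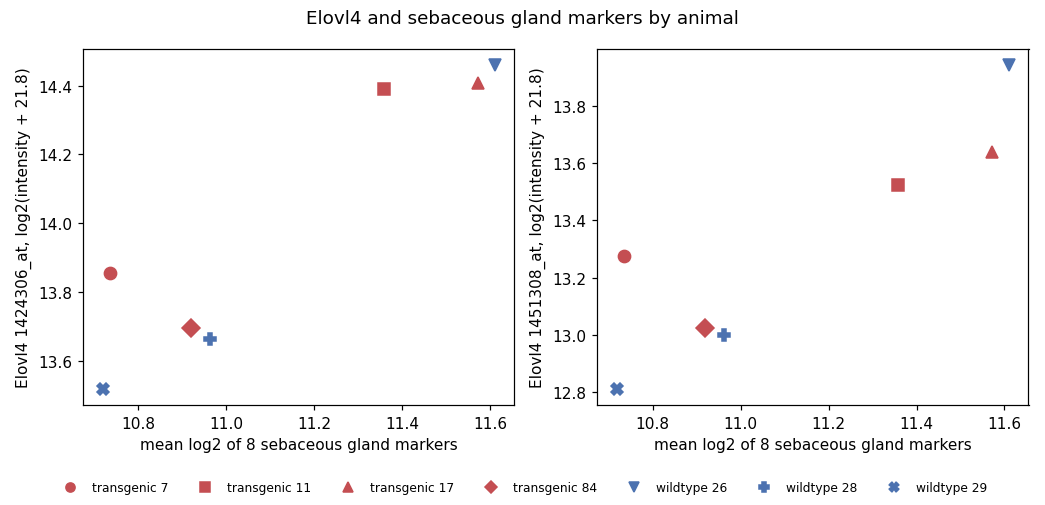
Level of the 2 Elovl4 probe sets (log2 of intensity plus 21.8) against the mean log2 level of 8 sebaceous gland markers in each of the 7 animals, transgenic in red and wildtype in blue. Transgenic 11, transgenic 17 and wildtype 26 lie at 11.36 to 11.61 on the marker axis and the other animals at 10.72 to 10.96.

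Alox12b and Aloxe3, neighbours on chromosome 11, act in sequence in the lipoxygenase pathway. Alox12b measured 7.94, 7.67, 9.14 and 8.90 in transgenic 7, 11, 17 and 84, against 9.19, 8.43 and 7.80 in wildtype 26, 28 and 29. Aloxe3 measured 8.85, 8.86, 9.32 and 8.98 in transgenic 7, 11, 17 and 84, against 9.71, 8.82 and 8.68 in wildtype 26, 28 and 29. In both genes wildtype 26 was highest and transgenic 17 next, and these animals had the lowest hair shaft keratins. Transgenic 11, next lowest in hair shaft keratins at 11.84, was the lowest of all animals in Alox12b. A link to hair shaft keratins was not tested. The difference was -0.06 for Alox12b (SE 0.43, 95% interval -1.05 to 0.93, limma adjusted p = 0.969) and -0.07 for Aloxe3 (SE 0.26, 95% interval -0.67 to 0.53, limma adjusted p = 0.940). Without wildtype 26 they turned to 0.30 and 0.25. The arrays of wildtype 29 read 8.16 and 7.44 for Alox12b, a gap of 0.72 within 1 animal, and 8.74 and 8.61 for Aloxe3.

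Abca12, the lamellar granule transporter, was read near the level filter of 6.45. It measured 6.58, 6.55, 6.38 and 6.83 in transgenic 7, 11, 17 and 84, against 7.28, 6.89 and 6.26 in wildtype 26, 28 and 29. Groups overlapped, with a difference of -0.22 (95% interval -0.91 to 0.47, limma adjusted p = 0.800). The difference was 0.44 within females and -0.62 within males. The interaction of group and sex did not pass (limma interaction term, unadjusted p = 0.119 and adjusted p of 1). The interaction test called 0 of 27022 probe sets, with 2.86% at an unadjusted p under 0.05 and none of the 15 member probe sets among them.

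Cers3, the ceramide synthase for very long acyl chains, had a group difference near 0, although transgenic animals differed among themselves. It measured 11.11, 10.23, 10.57 and 11.07 in transgenic 7, 11, 17 and 84, against 10.65, 10.86 and 10.93 in wildtype 26, 28 and 29. Transgenic 7 and 84, with the highest Gapdh ratios, stood above the wildtype animals and transgenic 11 and 17 below them. Transgenic 7 and 84 are also the transgenic females, and all females, wildtype 29 included, lay above all males. The part of sex or of the ratio in this order was not tested. The difference was -0.07 (SE 0.23, 95% interval -0.59 to 0.45, limma adjusted p = 0.926). It was -0.71 with the ratio as a covariate and -0.41 without transgenic 7 and 84, and no call was made in either setting.

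Members did not vary as a block. Over the 7 animals the probe sets with the highest signal of Alox12b and Aloxe3 had a Pearson correlation of 0.81, and those of Sptlc1 and Sptlc2 one of 0.83, while Elovl4 and Cers3 had one of -0.79. These values describe 7 animals of 2 groups on shared arrays and carry no test. The genes most like each member by the same measure, chosen as the top 2 among all tested probe sets with a single symbol, were Cdk12 and Ptgfr for Abca12 (0.98 and 0.97), Kcnn4 and Prokr1 for Alox12b (0.98 and 0.98), and Cd200r1 and Lce1b for Aloxe3 (0.997 and 0.98). Those for Elovl4 were Mfng and Gm20559 (0.98 and 0.98), those for Cers3 Mpp7 and Vta1 (0.99 and 0.98), and those for Ugcg Siah1a and Vdac1 (0.99 and 0.99). Sptlc1 had Lgals9 and Dapk1 (0.99 and 0.99), and Sptlc2 had Sec62 and Szrd1 (0.99 and 0.99). Lce1b, a late cornified envelope protein, is itself a gene of terminal keratinocyte differentiation. Such a ranking picks the highest values over 7 animals among 23273 probe sets less the member's own, and nothing on shared function is read from it.

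Other genes of barrier lipid synthesis and transport were read from a list of 62, of which 56 had a probe set of their own and 55 were tested, with 109 probe sets. None passed over all genes in limma. At an unadjusted p under 0.05 there were 16, of which 15 lay lower and 1 higher in transgenic skin. Lower ones made up 13.8% of the 109, against 7.93% of all tested probe sets, where 3.77% of all tested were higher. Groups did not overlap in 12, all of them lower, or 11.0% of the 109, against 6.71% lower and 4.58% higher among all tested. The median difference was -0.01, with 56 of 109 below 0. The count of 16 was 5 with the Gapdh ratio as a covariate, 6 without wildtype 28, 9 without transgenic 7 and 9 without wildtype 29, while it was 27 without transgenic 11 and 26 without wildtype 26.

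The lower end of that list held Abhd5, the activator of lipid hydrolases that is mutated in Chanarin-Dorfman syndrome, Abca1, the cholesterol exporter, Tgm1, the transglutaminase that builds the cornified envelope, and Smpd1, the acid sphingomyelinase. Abhd5 measured 10.24, 10.27, 10.28 and 9.90 in transgenic 7, 11, 17 and 84, against 10.61, 11.16 and 10.98 in wildtype 26, 28 and 29 (difference -0.74, limma adjusted p = 0.301). Tgm1 measured 8.45, 9.35, 8.27 and 8.06 in transgenic animals, against 9.12, 10.04 and 10.12 in wildtype animals in the same orders (difference -1.22, limma adjusted p = 0.319). Abca1 and Smpd1 had differences of -1.29 and -0.81 (limma adjusted p = 0.301 and 0.338). Groups overlapped in Tgm1 alone of these 4 probe sets. With the Gapdh ratio in the model, differences were -0.55 for Abhd5, -0.40 for Abca1, -0.46 for Tgm1 and -0.07 for Smpd1.

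As with Ugcg, probe sets of the same gene disagreed. Another probe set of Abhd5 gave 0.23 and another of Smpd1 gave 0.07. Abca1 had 3 probe sets, at -1.29, -1.04 and 0.23. At the higher end stood Dhcr7, the last enzyme of cholesterol synthesis, with 11.36, 10.72, 11.98 and 11.08 in transgenic 7, 11, 17 and 84, against 11.04, 10.31 and 9.92 in wildtype 26, 28 and 29 (difference 0.86, limma adjusted p = 0.393). Cers6, another ceramide synthase, gave 0.49, Acsl4, an acyl-CoA synthetase, 0.57 and Elovl6, an elongase of shorter fatty acids, 0.47 (limma adjusted p = 0.443, 0.499 and 0.500). The other tested probe sets gave 0.48 and -0.11 for Acsl4 and -0.67 and 0.16 for Elovl6.

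**Figure D5:**
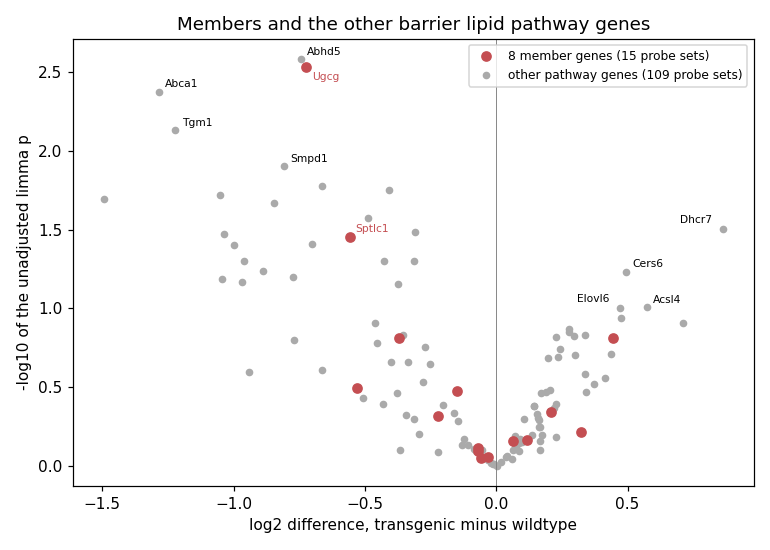
Log2 difference, transgenic minus wildtype, against -log10 of the unadjusted limma p for the 15 tested member probe sets (red) and the 109 of the other barrier lipid pathway genes (grey). The points at small p lie mostly on the lower side, 15 of the 16 grey points with p under 0.05 among them, and none passed after adjustment.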

How the data were processed

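Total RNA of belly skin had been labelled with the Affymetrix one-cycle protocol, per the labels, 1 animal per array. Each deposited value is an unlogged signal intensity of a probe set that the authors obtained with MAS5 (version not given), per the submitters' processing notes. They had a trimmed mean of 500.003 on each of the 8 arrays after the lowest and highest 2% were left out. Summed intensity lay between 34785081 and 37857733 per array. Detection calls were not used here. Symbols came from GEO's platform annotation.

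A pseudocount of 21.8 (the 20th percentile) was added before log2 was taken, and the arrays of wildtype 29 were averaged. Probe sets with a mean below the 40th percentile (6.45) were not tested. The group test used limma 3.58.1 under R 4.3.3 (group only, empirical Bayes with trend, Benjamini-Hochberg over 27022 probe sets, threshold 0.05), and the interaction with sex in a model of its own. Exact permutation tests ran over all 35 splits of 7 animals, doubling the smaller tail. The steps were tested on simulated data. All member probe sets are named; of other pathway genes, the 4 smallest p in each direction. Members, lists and alternatives were chosen with earlier results of these data known. Summaries used Python 3.11.15, numpy 2.4.6, pandas 2.3.3, scipy 1.17.1 and matplotlib 3.10.9.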

Additional observations from a re-analysis of the deposited data

Results flagged for a closer look

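In Sptlc2 1460243_at transgenic 84 stood at 9.56, apart from the other transgenic animals at 9.83 to 9.88. Its gap to the nearest was 0.841 of the range of the 4 animals, above the 95% limit of Dixon's test. It was the only such value among the 17 member probe sets, and chance alone flags about 1 group in 20.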

How the results depend on the processing

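Under 20 alternative settings no member probe set and no probe set of the other pathway genes was called by limma, and the lowest adjusted p of a member was 0.103, for Ugcg 1435133_at without transgenic 11. Ugcg 1421269_at lay between -0.80 and -0.63. The difference kept its direction in all 20 settings for 3 member probe sets (Ugcg 1421269_at, Sptlc1 1422690_at and Elovl4 1424306_at) and turned at least once for 12, each of them uncalled. With the Gapdh ratio as a covariate it turned to -0.36 for Ugcg 1435133_at, 0.051 for Ugcg 1421268_at, 0.12 for Sptlc1 1436726_s_at, 0.61 for Sptlc1 1422691_at and 0.0064 for Sptlc2 1460243_at. Without transgenic 7 and 84 it turned to 0.020 for Aloxe3, 0.081 for Sptlc1 1436726_s_at and 0.17 for Sptlc1 1422691_at. That setting leaves only males in the transgenic group, so ratio and sex cannot be told apart in it. Alox12b turned to 0.0035 with quantile and 0.023 with cyclic loess normalization, 0.0062 with sex as a covariate and 0.060 with the second array of wildtype 29. Sptlc1 1436726_s_at turned to 0.0031 with sex as a covariate and 0.0077 with the first array of wildtype 29. Leaving out 1 animal at a time gave -0.50 to 0.011 for Abca12, -0.40 to 0.30 for Alox12b, -0.27 to 0.25 for Aloxe3, -0.11 to 0.46 for Elovl4 1451308_at and -0.19 to 0.10 for Cers3. It gave -0.17 to 0.17 for Sptlc1 1436726_s_at, -0.42 to 0.76 for Sptlc1 1436727_x_at and -0.034 to 0.12 for Sptlc2 1435937_at. The cause of these turns was not tested. Of all tested probe sets 4 were called, against 10 with a pseudocount of 87.2, 2 with a filter at the 60th percentile, 11 with sex as a covariate, 9 with the second array of wildtype 29, 0 with the Gapdh ratio in the model (851 under an unadjusted p of 0.05) and 0 to 280 with an animal left out (0 without wildtype 28, 280 without transgenic 11). Among all tested probe sets at an unadjusted p under 0.05, the share lower in transgenic skin was 57.7% with quantile normalization and 67.8% without it. Values within each sex have no test and gave no count. No paired analysis was possible because the groups share no animal numbers. Wildtype animals span ratios of 1.03 to 1.14 only (0.927 to 1.41 over single arrays), so the covariate and the group cannot be fully told apart.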
